A study of Mus musculus with 24 samples.

Results

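The troponin genes of mouse muscle were followed in cultured skeletal muscle that was paced with light. Members were taken by gene symbol, and all 8 (Tnnt1, Tnnt2, Tnnt3, Tnni1, Tnni2, Tnni3, Tnnc1, and Tnnc2) had 1 row each among the 56941 genes of the tables. The study asked how the rate of daily optical exercise changes gene expression in engineered muscle. All 24 RNA sequencing libraries came from C2C12, a single mouse cell line that fuses into contractile myotubes, with the genotype ChR2::tdTomato, a light-gated ion channel joined to a red fluorescent protein. The controls carried the channel as well, received no light, and according to the study's discussion still twitched spontaneously. Tissues were differentiated on fibrin gels in medium with horse serum (10%) and IGF-1 (50 ng/ml). The exercised tissues received light for 30 min per day at 1, 4, or 10 Hz. Each of the 4 conditions comprised 6 libraries, which the study's methods describe as biological replicates.

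Troponin is the calcium switch of the thin filament. Troponin C binds calcium, troponin I holds the actin filament in the off state, and troponin T ties both to tropomyosin, the rod that covers the myosin-binding sites of actin. Troponins T and I each have a slow skeletal, a fast skeletal, and a cardiac gene, while troponin C has a fast gene and a gene shared by slow skeletal and cardiac muscle. The cardiac T gene is also expressed in embryonic skeletal muscle and is replaced by the skeletal genes as fibers mature.

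The labels give the cell type as myoblast, and in control the listed myotube genes had higher means than the listed myoblast genes. In control, Myog, a transcription factor of differentiating muscle cells, had a mean of 294 counts per M (mega) of the scaled library (CPM), and Des, the muscle intermediate filament, had 1597 CPM. Ckm had 68.4 CPM, and the lowest of the listed myotube genes, Mymx, had 39.0 CPM. The proliferation gene Mki67 had 0.996 CPM and the satellite cell gene Pax7 had 1.86 CPM. The other listed myoblast genes were higher, with Myf5 at 21.1, Cdk1 at 14.6, Top2a at 6.52, and Ccnb1 at 4.71 CPM. Total counts ranged from 4.09 to 15.2 M per library. The summed share of 31 listed small RNAs, transcripts without poly(A) tails, was 133 ± 25.7 CPM in control, 29.9 ± 21.0 at 1 Hz, 27.4 ± 11.8 at 4 Hz, and 127 ± 85.6 at 10 Hz (SD, n = 6 each). All libraries at 1 and 4 Hz lay below every control library on this measure (2-sided exact permutation p = 0.00216 each, adjusted p = 0.00649), which is the lowest value the test can reach with 6 libraries a side, whereas at 10 Hz the exact permutation p was 0.872. These values are set beside the troponin results below.

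Each T gene lay beside an I gene in the genome (GRCm39, GENCODE M39 annotation). On chromosome 7, Tnnt1 (chr7:4507567-4519381, minus strand) lay 1918 bases from Tnni3 (chr7:4521300-4527228, minus strand), with no coding gene between them. On chromosome 1, Tnni1 (chr1:135707172-135738727, plus strand) and Tnnt2 (chr1:135763738-135780315, plus strand) were 25010 bases apart with Lad1 between them. The fast pair, Tnni2 (chr7:141995545-141998147, plus strand) and Tnnt3 (chr7:142048605-142070280, plus strand), was 50457 bases apart with Lsp1 and Prr33 between. The C genes stood alone, Tnnc1 at chr14:30930232-30933708 (plus strand) and Tnnc2 at chr2:164619075-164621887 (minus strand). The annotated canonical transcripts ran from 6 exons for Tnnc1 and Tnnc2 to 17 for Tnnt3, which had 310 annotated transcripts, the most of the family. The tables sum over transcripts, so splice forms were not analysed here.

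The promoters of a slow, a fast, and a cardiac gene are printed because these genes changed together in the comparisons that follow. Each line gives the 250 bases before the annotated start of the canonical transcript in the direction of the gene, with capitals for E-boxes, the CANNTG motif that myogenic bHLH factors such as Myod1 and Myog bind. The windows are chr1:135726890-135727139 (plus strand) for Tnni1, chr7:141995295-141995544 (plus strand) for Tnni2, and chr1:135763488-135763737 (plus strand) for Tnnt2.
Tnni1: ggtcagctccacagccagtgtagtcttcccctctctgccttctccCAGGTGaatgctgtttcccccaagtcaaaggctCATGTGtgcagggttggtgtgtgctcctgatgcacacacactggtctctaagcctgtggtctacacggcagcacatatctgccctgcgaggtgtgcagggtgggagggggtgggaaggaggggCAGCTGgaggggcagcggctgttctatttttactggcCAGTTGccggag
Tnni2: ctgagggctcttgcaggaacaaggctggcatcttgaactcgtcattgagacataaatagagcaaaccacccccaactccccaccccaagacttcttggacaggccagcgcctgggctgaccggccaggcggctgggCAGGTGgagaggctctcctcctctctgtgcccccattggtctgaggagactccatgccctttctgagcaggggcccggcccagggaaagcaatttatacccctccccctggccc
Tnnt2: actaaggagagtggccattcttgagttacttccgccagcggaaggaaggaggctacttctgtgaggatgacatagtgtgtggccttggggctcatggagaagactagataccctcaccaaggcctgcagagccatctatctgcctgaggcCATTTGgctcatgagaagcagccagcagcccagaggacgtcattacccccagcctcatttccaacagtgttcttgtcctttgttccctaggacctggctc
An E-box was present in the windows of 8 of 8 troponin genes and in 64.8% of the windows of 21770 coding genes searched the same way, on both strands. The slow gene Tnni1 held 4 of them, including 1 CAGCTG, and the fast gene Tnni2 and the cardiac gene Tnnt2 held 1 each. CAGCTG, which is one form of CANNTG, was found in 2 troponin windows (Tnnt3 and Tnni1) and in 11.9% of all windows. The MCAT element CATTCC was found in 1 troponin window (Tnnc1) and in 12.1% of all windows. TATAAA was found in 1 troponin window (Tnni2, on the opposite strand) and in 11.9% of all windows. The MEF2 motif and the CArG box were found in 0 of the 8, and in 2.79% and 1.40% of all windows. A match is a description of these letters and not a binding site.

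In unstimulated muscle, 7 of the 8 genes were abundant and the cardiac I gene was near the limit of detection. Levels between genes are given in transcripts per M (TPM), a scale per transcript length. By mean control level the order was Tnnc1 (2595 ± 213 TPM), Tnnc2 (1613 ± 150), Tnni1 (1514 ± 104), Tnni2 (1215 ± 129), Tnnt2 (1168 ± 124), Tnnt3 (1078 ± 117), Tnnt1 (453 ± 34.5), and Tnni3 (2.67 ± 1.10; SD, n = 6 each). The ranges over control libraries were apart between Tnnc1 and Tnnc2, between Tnni1 and Tnni2, between Tnnt3 and Tnnt1, and between Tnnt1 and Tnni3. The ranges overlapped for the other neighbours, Tnnc2 with Tnni1, Tnni2 with Tnnt2, and Tnnt2 with Tnnt3. Tnnc1 ranked 42nd of all genes by mean control TPM and Tnnt1 ranked 316th. The 8 genes together made up 0.964 ± 0.0671% of all TPM in control, 1.39 ± 0.127% at 1 Hz, 1.63 ± 0.180% at 4 Hz, and 1.19 ± 0.170% at 10 Hz (SD, n = 6 each). The ranges of this sum were 0.834 to 1.03% in control, 1.30 to 1.61% at 1 Hz, 1.45 to 1.89% at 4 Hz, and 0.962 to 1.47% at 10 Hz.

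**Figure D1:**
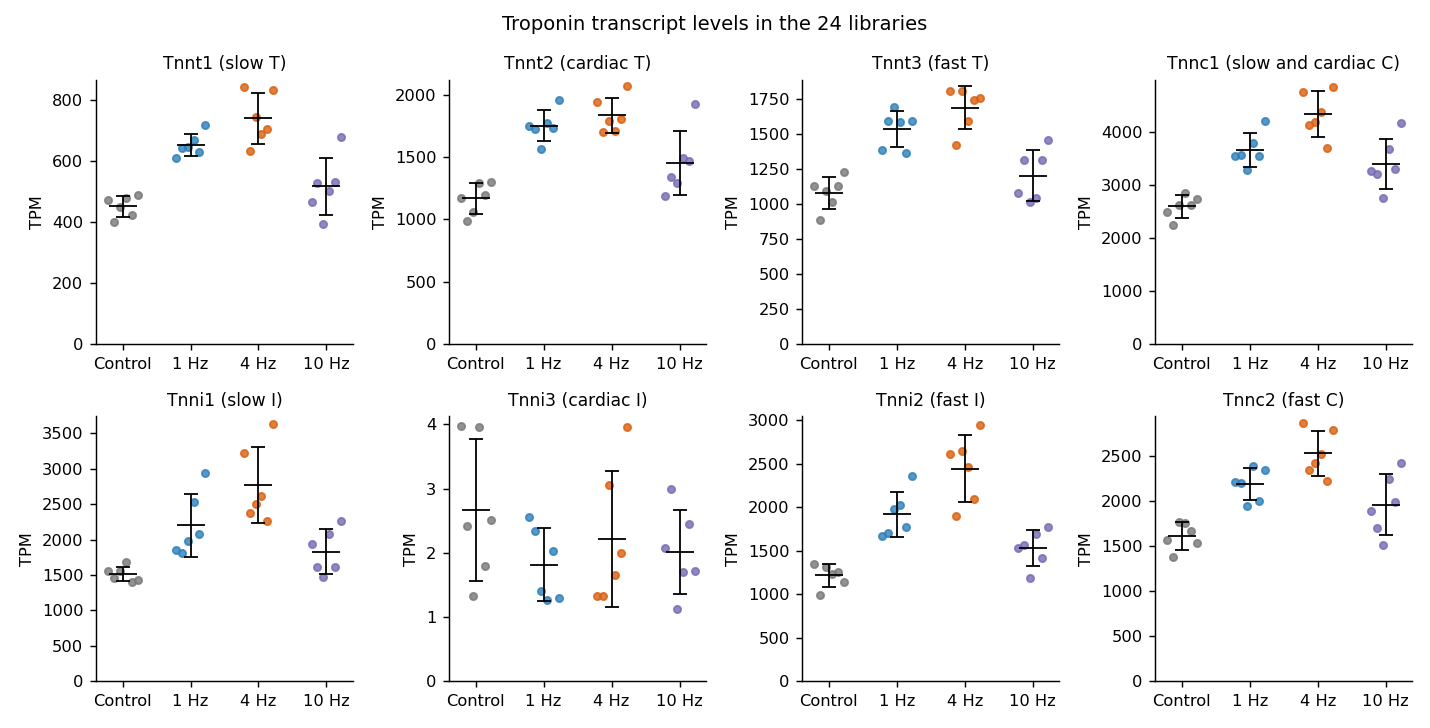
Level of each troponin gene (TPM, own vertical axis from 0 in each panel) in the 24 libraries by condition, with points for libraries and black bars for the mean and SD (n = 6). For the 7 abundant genes every library at 1 and 4 Hz lay above every control library, and the 10 Hz libraries overlapped with control.

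Slow, fast, and cardiac-type troponin genes rose at 1 Hz and at 4 Hz, with a larger log2 fold change at 4 Hz for each gene, and at 10 Hz Tnnc1 passed both thresholds used for a call while Tnnt2, Tnni2, and Tnnc2 passed that on the adjusted p. Of the 8 genes, 7 had enough counts to be tested among 13318 genes, and Tnni3 did not. A gene was called if its log2 fold change exceeded 0.5 in either direction and its adjusted p was below 0.05 (edgeR quasi-likelihood test, adjusted over all genes tested). At 1 Hz 7 of 7 were called higher than control, where 9.34% of all genes tested were, with log2 fold changes from 0.52 to 0.75 and a median of 0.59. The small RNA share was lower in every 1 Hz library than in control, and with it as a covariate 0 of 7 were called at 1 Hz and 6 of 7 at 4 Hz. With this covariate 1 of all genes tested was called in either direction at 1 Hz, and 228 were at 4 Hz. Without the covariate, 7 of 7 were called higher at 4 Hz, where 10.5% of all genes were, with log2 fold changes from 0.84 to 1.23 and a median of 0.90. At 10 Hz 1 of 7 was called higher, where 1.24% of all genes were, and 4 of 7 were higher by adjusted p alone, where 2.67% of all genes were. Over all genes tested, the median log2 difference was -0.01 in each of these 3 comparisons, which share their control libraries. In CPM, all 6 libraries lay above every control library for 7 of 7 genes at 1 Hz (7.22% of all genes), 7 of 7 at 4 Hz (8.68%), and 1 of 7 at 10 Hz (1.28%). In bulk RNA, more muscle cells with the same troponin content and more troponin RNA per cell cannot be told apart.

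The T genes, whose products anchor the complex to tropomyosin, rose by 1.50 to 1.59-fold at 1 Hz and by 1.79 to 1.87-fold at 4 Hz. The slow gene Tnnt1 had a lowest, median, and highest level of 399.9, 462, and 488 TPM in control and of 611, 646, and 719 TPM at 1 Hz. It had 634, 726, and 845 TPM at 4 Hz and 394, 517, and 680 TPM at 10 Hz. Every library at 1 and 4 Hz was above every control library, and the 10 Hz range spanned the whole control range. The log2 fold change of Tnnt1 counts was 0.59 ± 0.11 at 1 Hz (SE, adjusted p = 0.000187), 0.90 ± 0.11 at 4 Hz (adjusted p = 9.02e-07), and 0.29 ± 0.11 at 10 Hz (adjusted p = 0.109).

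The cardiac gene Tnnt2 was the most abundant T gene in every condition by its mean. Its lowest, median, and highest levels were 988, 1185, and 1300 TPM in control and 1567, 1743, and 1954 TPM at 1 Hz. They were 1698, 1796, and 2066 TPM at 4 Hz and 1189, 1405, and 1927 TPM at 10 Hz. The 1 and 4 Hz libraries did not overlap with control but overlapped broadly with each other. Tnnt2 counts had a log2 fold change of 0.67 ± 0.10 at 1 Hz (SE, adjusted p = 3.05e-05), 0.86 ± 0.10 at 4 Hz (adjusted p = 8.95e-07), and 0.42 ± 0.10 at 10 Hz (adjusted p = 0.0154, below the fold threshold).

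The fast gene Tnnt3 had a lowest, median, and highest level of 884, 1109, and 1225 TPM in control and of 1363, 1589, and 1691 TPM at 1 Hz. It had 1422, 1748, and 1807 TPM at 4 Hz and 1015, 1196, and 1453 TPM at 10 Hz. As with the slow gene, the 1 and 4 Hz libraries lay above control and the 10 Hz libraries straddled its upper end. The log2 fold change of Tnnt3 counts was 0.58 ± 0.10 at 1 Hz (SE, adjusted p = 0.000100), 0.84 ± 0.10 at 4 Hz (adjusted p = 8.61e-07), and 0.26 ± 0.10 at 10 Hz (adjusted p = 0.130). Prr33, the gene that overlaps Tnnt3 on the other strand, had 0.650 CPM in control.

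Among the I genes, which code for the inhibitory subunit, the fast gene Tnni2 had the largest log2 fold change of the family at 1 and 4 Hz. Tnni2 had a lowest, median, and highest level of 994, 1244, and 1348 TPM in control and of 1672, 1873, and 2356 TPM at 1 Hz. It had 1898, 2534, and 2949 TPM at 4 Hz and 1190, 1550, and 1776 TPM at 10 Hz. The 4 Hz libraries of Tnni2 lay above every control library and above every 10 Hz library. Tnni2 counts had a log2 fold change of 0.75 ± 0.13 at 1 Hz (SE, adjusted p = 0.000134), 1.23 ± 0.13 at 4 Hz (adjusted p = 3.05e-07), and 0.47 ± 0.13 at 10 Hz (adjusted p = 0.0340, below the fold threshold).

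At 1 and 4 Hz, the slow gene Tnni1 had the largest SD relative to its mean of the 7 tested genes. Its lowest, median, and highest levels were 1405, 1505, and 1686 TPM in control and 1813, 2028, and 2941 TPM at 1 Hz. They were 2265, 2561, and 3630 TPM at 4 Hz and 1463, 1774, and 2267 TPM at 10 Hz. All libraries at 1 and 4 Hz were above control, and the spread at these frequencies was wider than in control. The log2 fold change of Tnni1 counts was 0.62 ± 0.15 at 1 Hz (SE, adjusted p = 0.00197), 1.06 ± 0.15 at 4 Hz (adjusted p = 5.43e-06), and 0.38 ± 0.15 at 10 Hz (adjusted p = 0.123). Without 1 Hz replicate 6, its highest library at 1 Hz, the value at 1 Hz was 0.496 (adjusted p = 0.00909), just under the fold threshold.

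The cardiac gene Tnni3 had 3 to 25 counts per library. Its lowest, median, and highest levels were 1.33, 2.47, and 3.98 TPM in control, 1.26, 1.72, and 2.56 TPM at 1 Hz, 1.32, 1.82, and 3.95 TPM at 4 Hz, and 1.13, 1.89, and 3.00 TPM at 10 Hz. The 4 ranges overlapped, and a difference was not detectable at this depth. Dnaaf3, which overlaps Tnni3 on the same strand, had 1.01 CPM in control, so that reads could be split between them.

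The C genes, which code for the calcium sensor, held the highest level of the family in Tnnc1, the gene shared by slow and cardiac muscle. Tnnc1 had a lowest, median, and highest level of 2238, 2626, and 2855 TPM in control and of 3290, 3555, and 4207 TPM at 1 Hz. It had 3701, 4281, and 4849 TPM at 4 Hz and 2751, 3284, and 4156 TPM at 10 Hz. All libraries at 1 and 4 Hz exceeded control, and at 10 Hz all 6 exceeded it in CPM while the lowest ones overlapped with it in TPM. The log2 fold change of Tnnc1 counts was 0.58 ± 0.10 at 1 Hz (SE, adjusted p = 0.000160), 0.95 ± 0.10 at 4 Hz (adjusted p = 3.48e-07), and 0.51 ± 0.10 at 10 Hz (adjusted p = 0.00451). The 10 Hz value of Tnnc1 was close to the fold threshold, and it was 0.47 without control replicate 2, 0.47 without 10 Hz replicate 4, and 0.45 without 10 Hz replicate 6, each uncalled with an adjusted p from 0.0145 to 0.0168. It was also uncalled with total count scaling (0.48) and with limma on log2(TPM + 1) (0.38), and on that TPM scale the 1 Hz value of Tnnc1 was 0.495 and uncalled.

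The fast gene Tnnc2 had a lowest, median, and highest level of 1375, 1618, and 1772 TPM in control and of 1947, 2213, and 2389 TPM at 1 Hz. It had 2225, 2477, and 2869 TPM at 4 Hz and 1514, 1942, and 2421 TPM at 10 Hz. The order of the conditions was that of the other genes, with no overlap between control and 1 or 4 Hz. For Tnnc2 counts the log2 fold change was 0.52 ± 0.11 at 1 Hz (SE, adjusted p = 0.000887), 0.86 ± 0.11 at 4 Hz (adjusted p = 2.80e-06), and 0.41 ± 0.11 at 10 Hz (adjusted p = 0.0323, below the fold threshold). At 1 Hz the Tnnc2 value was near the fold threshold and fell to 0.48 without control replicate 2, 0.48 without 1 Hz replicate 4, and 0.48 without 1 Hz replicate 6. It was 0.496 without control replicate 6, 0.45 with total count scaling, 0.499 with a filter at a mean of 5 CPM, and 0.44 with limma on log2(TPM + 1), each uncalled. Ube2c, which overlaps Tnnc2 on the opposite strand, had 5.58 CPM in control and 13.5 CPM at 4 Hz, and Nisch, which overlaps Tnnc1 on the opposite strand, had 367 CPM in both. Libraries were directional, but whether the counting used strand is not given in the sources used here.

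**Figure D2:**
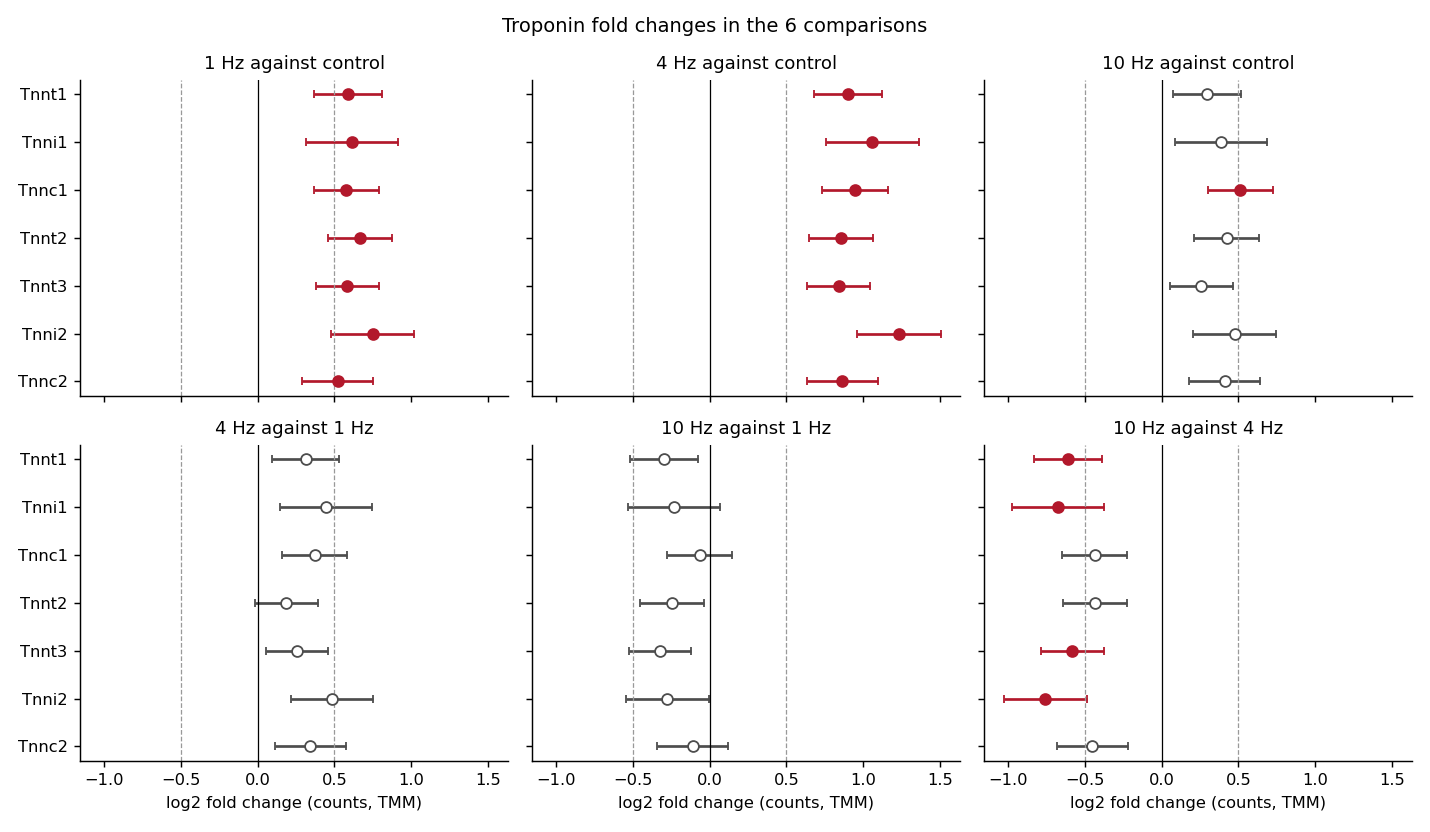
Log2 fold change (horizontal axis, counts with TMM scaling) of the 7 tested troponin genes in the 6 comparisons, with 95% confidence intervals, filled red for called genes and open for others, and dashed lines at the fold threshold of 0.5. All 7 genes lay to the right of 0 against control, and all 7 lay to the left of 0 for 10 Hz against 4 Hz.

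Between frequencies, the mean level of each of the 7 abundant troponin genes was highest at 4 Hz. For 4 Hz against 1 Hz, 0 of 7 genes were called higher (1.59% of all genes tested), and 4 of 7 were higher by adjusted p alone (5.71% of all genes): Tnni2 by 0.48 ± 0.13 on the log2 scale (SE, adjusted p = 0.0165), Tnni1 by 0.44 ± 0.15 (adjusted p = 0.0451), Tnnc1 by 0.37 ± 0.10 (adjusted p = 0.0191), and Tnnc2 by 0.34 ± 0.11 (adjusted p = 0.0456). The 3 T genes were not among them, with values from 0.19 to 0.31. In CPM the 1 and 4 Hz libraries overlapped for all 7 genes, where 2.37% of all genes did not overlap in this direction. For 10 Hz against 4 Hz, 4 of 7 genes fell (5.64% of all genes): Tnni2 by 0.76 ± 0.13 on the log2 scale, Tnni1 by 0.68 ± 0.15, Tnnt1 by 0.61 ± 0.11, and Tnnt3 by 0.58 ± 0.10 (SE, adjusted p from 0.000313 to 0.00200). With limma on log2(TPM + 1), Tnnt3 was at -0.497 and uncalled. By adjusted p alone all 7 were lower (11.9% of all genes), with Tnnt2 at -0.43, Tnnc1 at -0.44, and Tnnc2 at -0.45. In CPM 3 of 7 genes, Tnnt3, Tnni1, and Tnni2, had every 10 Hz library below every 4 Hz library (3.54% of all genes). The small RNA share also differed between 10 and 4 Hz, as given below.

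For 10 Hz against 1 Hz, 0 of 7 genes were called lower (8.49% of all genes), and 2 of 7 were lower by adjusted p alone (18.5% of all genes), Tnnt3 at -0.33 ± 0.10 on the log2 scale (SE, adjusted p = 0.0121) and Tnnt1 at -0.30 ± 0.11 (adjusted p = 0.0320). Tnnc1 had the smallest difference in this comparison, -0.06 ± 0.10 (adjusted p = 0.655), with a 95% interval from -0.28 to 0.15. In CPM the 1 and 10 Hz libraries overlapped for all 7 genes, where 7.49% of all genes did not overlap in this direction. The 10 Hz libraries differed among themselves, and 10 Hz replicate 6, which had the lowest small RNA share of its condition (37.1 CPM), had the highest TPM of its condition for 7 of the 7 tested genes.

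The mix of slow, fast, and cardiac transcripts within each subunit was compared as shares of the subunit's TPM, in 42 comparisons (7 shares, 6 pairs of conditions). None passed an adjusted p of 0.05 (0 of 42, 2-sided exact permutation tests, lowest adjusted p = 0.205), and the 95% intervals of the differences reached at most 6.22 percentage points. An unadjusted p below 0.05 was found in 6 of the 42. The depth and the spread between libraries thus left room for shifts of a few points in either direction.

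Within troponin T, the cardiac gene Tnnt2 took 43.3 ± 1.82% of transcripts in control, 44.5 ± 2.49% at 1 Hz, 43.1 ± 1.48% at 4 Hz, and 45.7 ± 2.78% at 10 Hz (SD, n = 6 each). Its difference between 10 Hz and control was 2.46 points (95% interval -0.719 to 5.59, exact permutation, adjusted p = 0.429). The fast gene Tnnt3 took 39.9 ± 1.95% in control, 38.9 ± 2.56% at 1 Hz, 39.6 ± 1.58% at 4 Hz, and 38.0 ± 2.61% at 10 Hz. The slow gene Tnnt1 was the smallest part, with 16.8 ± 0.829% in control, 16.6 ± 0.272% at 1 Hz, 17.4 ± 0.672% at 4 Hz, and 16.3 ± 0.898% at 10 Hz. The share of Tnnt1 was 1.10 points lower at 10 Hz than at 4 Hz (95% interval of the difference -2.13 to -0.120, exact permutation, adjusted p = 0.205).

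Within troponin I, the slow gene Tnni1 took 55.5 ± 2.60% in control, 53.2 ± 2.26% at 1 Hz, 53.0 ± 2.79% at 4 Hz, and 54.3 ± 2.06% at 10 Hz (SD, n = 6 each). The fast gene Tnni2 took nearly all of the rest, 44.4 ± 2.61% in control and 47.0 ± 2.78% at 4 Hz. The Tnni2 share differed by 2.54 points between 4 Hz and control (95% interval -1.13 to 6.22, exact permutation, adjusted p = 0.429). The cardiac gene Tnni3 took 0.0970 ± 0.0362% in control and 0.0418 ± 0.0157% at 4 Hz, a difference of -0.0552 points (95% interval -0.0905 to -0.0192, exact permutation p = 0.00866, adjusted p = 0.205). This share rests on a numerator of 3 to 25 counts per library and on a denominator that rose.

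Within troponin C, Tnnc1, shared by slow and cardiac muscle, took 61.7 ± 1.41% in control, 62.6 ± 1.22% at 1 Hz, 63.1 ± 0.561% at 4 Hz, and 63.4 ± 1.25% at 10 Hz (SD, n = 6 each), with the fast gene Tnnc2 as the rest. Its difference between 10 Hz and control was 1.77 points (95% interval 0.0941 to 3.43, exact permutation, adjusted p = 0.348). Across subunits, T took 27.99 ± 1.50% of all troponin TPM in control and 26.2 ± 1.69% at 4 Hz. I took 28.4 ± 1.39% in control and 31.7 ± 1.91% at 4 Hz, and C took 43.6 ± 1.12% in control and 42.1 ± 1.64% at 4 Hz. These sums over subunits were not tested.

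**Figure D3:**
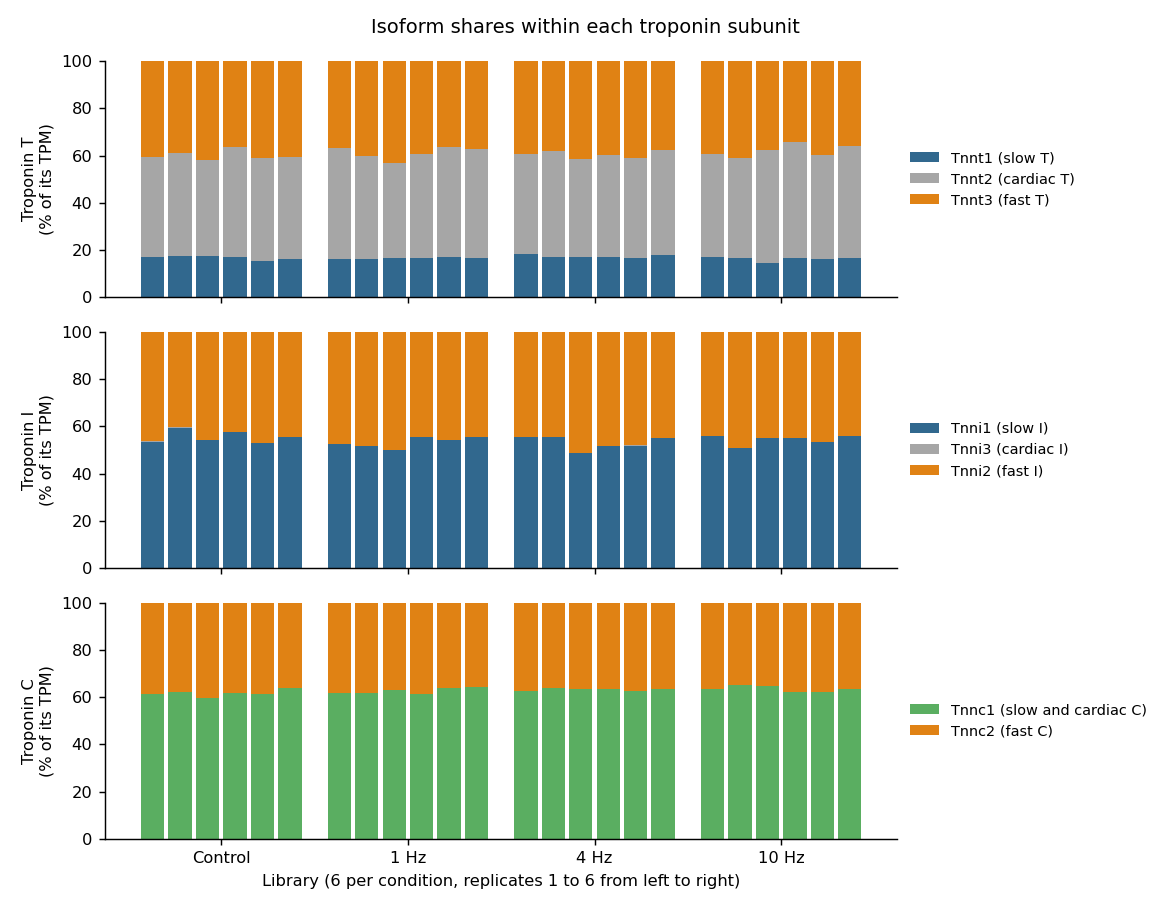
Share of each gene (% of the TPM of its subunit) within troponin T, I, and C, with 1 stacked bar per library and 6 libraries per condition. Slow (blue), cardiac (gray), fast (orange), and slow and cardiac (green) genes kept similar bands in the 4 conditions, with a Tnnt2 share of 43.1 to 45.7% and a Tnnc1 share of 61.7 to 63.4% by condition means.

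Library composition differed from control at 1 and 4 Hz, where the troponin levels were also higher. No difference in the small RNA share was detected between 10 Hz and control (127 and 133 CPM, exact permutation p = 0.872). The same held between 4 and 1 Hz (27.4 and 29.9 CPM, exact permutation p = 0.799). The share was higher at 10 Hz than at 4 Hz (exact permutation p = 0.00433, adjusted p = 0.00866). It was also higher at 10 Hz than at 1 Hz (exact permutation p = 0.00866, adjusted p = 0.0130). Composition thus differed in these 10 Hz comparisons as well. The small RNA share was lower at 1 and 4 Hz than in control in every library, so that condition and this share cannot be told apart between these groups. Low-input samples were ribodepleted instead of poly(A)-selected, which ones is not given in the labels, and so the 1 and 4 Hz differences and a difference in library preparation cannot be told apart. With its log2 value as a covariate, 0 of 7 troponin genes were called at 1 Hz, with log2 fold changes from 0.29 to 0.59 and adjusted p from 0.279 to 0.723, and over all genes 1 was called. At 4 Hz 6 of 7 were called, with Tnni2 at 1.08 ± 0.21 (SE, adjusted p = 0.0101) and Tnni1 uncalled at 0.75 ± 0.22 (adjusted p = 0.0775), and over all genes 228 were called. At 10 Hz 0 of 7 were called, with Tnnc1 at 0.48 ± 0.10 (adjusted p = 0.00758). For 10 Hz against 4 Hz 0 of 7 were called and over all genes 0 were.

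**Figure D4:**
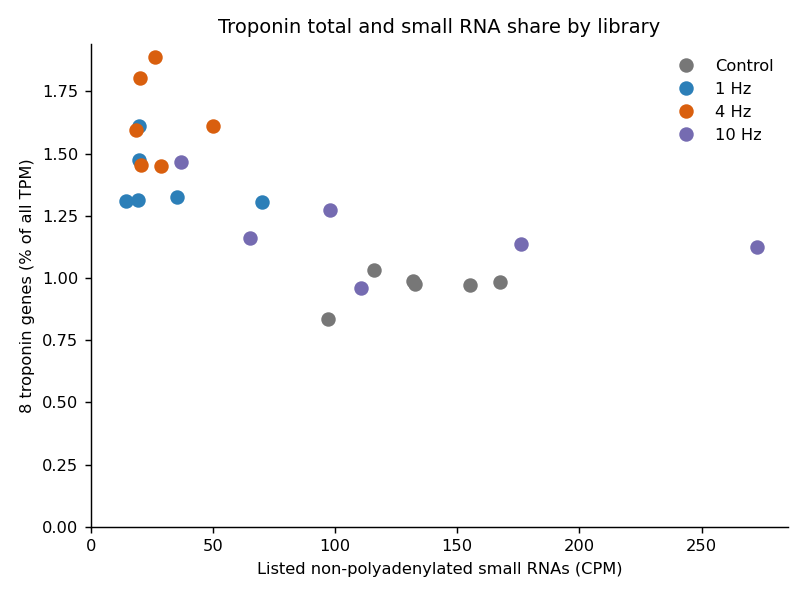
Sum of the 8 troponin genes (vertical axis, % of all TPM, from 0) against the share of listed non-polyadenylated small RNAs (horizontal axis, CPM of the raw total) in each of the 24 libraries, colored by condition. The 1 and 4 Hz libraries lie at the upper left, with small RNA shares below every control library, and the 10 Hz libraries range from 37.1 to 273 CPM.

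Some of the other thin filament genes rose at 1 and 4 Hz. Of 15 genes listed, 14 were tested, and 6 were called higher at 1 Hz and 7 at 4 Hz, with 0 lower, and 0 either way at 10 Hz. Over all genes tested, 9.34% were called higher and 8.99% lower at 1 Hz, and 10.5% and 9.61% at 4 Hz. At 10 Hz 1.24% of all genes were called higher. The median log2 fold change of the 14 genes was 0.47 at 1 Hz, 0.55 at 4 Hz, and 0.15 at 10 Hz. Skeletal actin Acta1 rose by 0.78 ± 0.15 on the log2 scale at 1 Hz and 0.83 ± 0.15 at 4 Hz (SE). Cardiac actin Actc1, which is also the embryonic form in skeletal muscle, rose by 0.81 ± 0.17 and 1.03 ± 0.17. Among the tropomyosin genes, Tpm2 rose by 0.64 ± 0.11 and 0.81 ± 0.11 and was called. Tpm1 (0.33 and 0.47) and Tpm3 (0.37 and 0.40) were higher by adjusted p alone at both frequencies, below the fold threshold. Tpm4 (0.20 and 0.21) passed neither threshold. The pointed-end cap Tmod1 rose by 0.50 and 0.63, its relative Tmod4 by 0.83 and 1.80, and Klhl41, a sarcomere-stabilizing protein, by 0.72 and 0.84. Lmod3, a filament nucleator, was called at 4 Hz (0.62) and was higher by adjusted p alone at 1 Hz (0.49). Lmod2 (0.32 and 0.28) and Klhl40 (0.45 and 0.48) were higher by adjusted p alone at both frequencies. Neb, the ruler of thin filament length (0.27 and 0.26), and Cfl2 (0.01 and 0.12) passed neither threshold, and Kbtbd13 was too low to test. For 4 Hz against 1 Hz, Tmod4 alone of the 14 was called higher, by 0.97 on the log2 scale (adjusted p = 0.0136), where 1.59% of all genes were. Tmod4 was low, at 1.64 CPM in control, 3.01 at 1 Hz, and 5.88 at 4 Hz, and its 1 Hz libraries overlapped with control.

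Most listed genes of both the slow and the fast fiber program other than troponins rose at 1 and 4 Hz. Of 11 slow genes listed 10 were tested, and 10 were called higher at 1 Hz, 9 at 4 Hz, and 2 at 10 Hz. Of 11 fast genes tested, 9 were called higher at 1 Hz, 9 at 4 Hz, and 1 at 10 Hz. Over all genes tested, 9.34%, 10.5%, and 1.24% were called higher at 1, 4, and 10 Hz. No gene of either list was called lower, where 8.99% of all genes were at 1 Hz and 9.61% at 4 Hz. The slow list had a median log2 fold change of 0.96, 1.12, and 0.30 at 1, 4, and 10 Hz, and the fast list had 0.91, 0.84, and 0.25. The largest values in the slow list were Myh7, the slow myosin heavy chain, at 1 Hz (1.21 ± 0.20, SE), Myl2, the slow regulatory light chain, at 4 Hz (1.53 ± 0.23), and Csrp3, a Z-disc protein, at 10 Hz (0.75 ± 0.15). In the fast list they were Myh2, a fast oxidative myosin heavy chain, at 1 Hz (1.22 ± 0.19) and 4 Hz (1.46 ± 0.19) and Mylpf, the fast regulatory light chain, at 10 Hz (0.57 ± 0.13). Pvalb, a calcium buffer of fast fibers, was the fast gene called for 4 Hz against 1 Hz (0.90, adjusted p = 0.00473). Of 3 developmental myosin genes, 3, 3, and 1 were called higher, led by Myh8 at 1 Hz (1.31 ± 0.18) and Myh3 at 4 Hz (1.26 ± 0.19) and 10 Hz (0.82 ± 0.19).

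**Figure D5:**
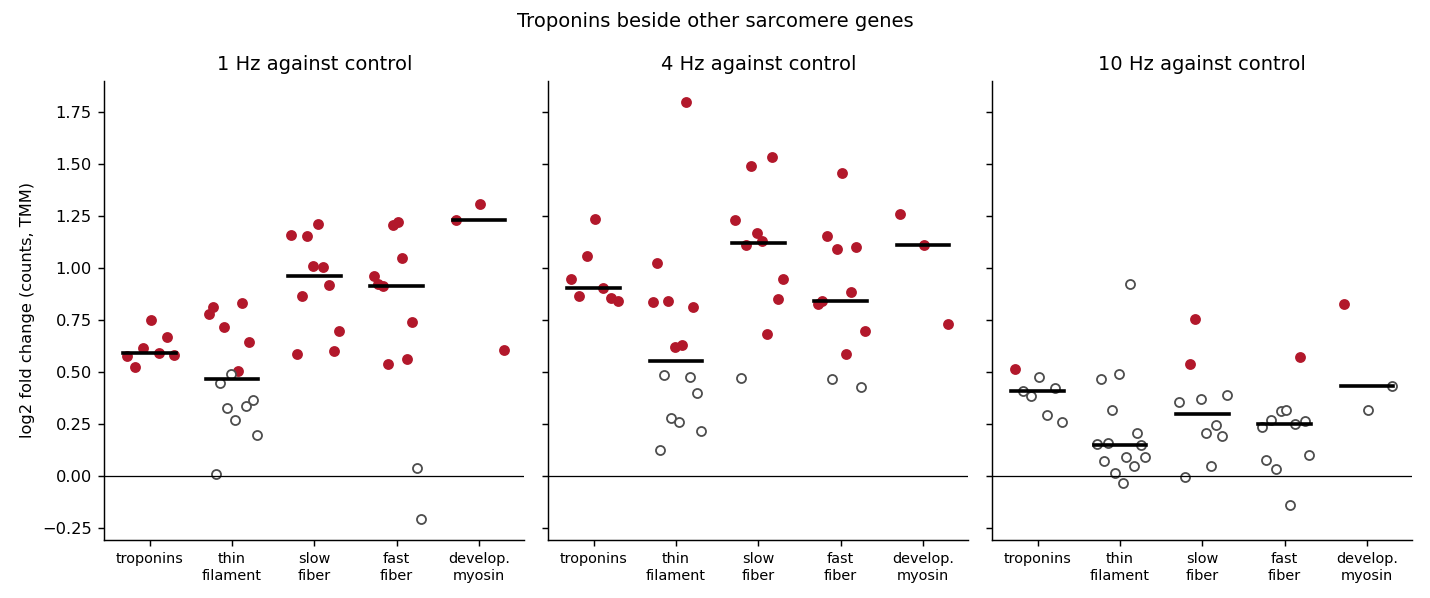
Log2 fold change against control (vertical axis, counts with TMM scaling) of the 7 tested troponin genes and of the tested genes of 4 other lists at 1, 4, and 10 Hz, with filled red points for called genes, open points for others, and black lines for medians. The troponin medians were 0.59, 0.90, and 0.41, and the slow fiber medians were 0.96, 1.12, and 0.30.

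Marker lists of cell types were examined beside the sarcomere lists. For reading the counts, 9.34%, 10.5%, and 1.24% of all genes tested were called higher at 1, 4, and 10 Hz. At 1 and 4 Hz, 8.99% and 9.61% were called lower. Of 8 differentiated myotube genes, 4, 5, and 3 were called higher at 1, 4, and 10 Hz, led in each by Cav3, the caveolin of muscle membranes (0.98, 1.29, and 0.69 on the log2 scale), and 0 were lower. Of 6 genes of undifferentiated or proliferating myoblasts, Pax7 was called higher at 1 Hz (0.99), and at 4 Hz 3 were higher, led by Mki67 (1.28), and Myf5, an early myogenic factor, was lower (-0.61). Pax7 had at most 3.84 CPM and Mki67 at most 2.33 CPM by condition means. At 4 Hz Mki67 had an SD of 1.98 CPM, and 2 of its 6 libraries lay above every control library. Top2a was the third gene called higher at 4 Hz (0.69). Cdk1 was lower by adjusted p alone at 1 Hz (-0.38, adjusted p = 0.0313) and 4 Hz (-0.38, adjusted p = 0.0260). Ccnb1 was not called at 1 or 4 Hz (-0.57 and 0.15). Of 8 heart muscle genes 5 were tested. The atrial genes Nppa and Myl7 were at 0 counts in all 24 libraries, Tbx5 was at or near 0, and Myh6, a cardiac myosin heavy chain also found in developing skeletal muscle, rose by 1.00 at 1 Hz and 0.85 at 4 Hz. Nppb was lower at 1 Hz (-1.25) and Sln higher at 4 Hz (1.28), at 1.07 and 2.30 CPM in those conditions. Gata4, at 21.6 CPM in control, was not called. Its values were -0.23, -0.38, and -0.27 at 1, 4, and 10 Hz, lower by adjusted p alone at 4 Hz (0.00841). Nkx2-5, at 1.31 CPM in control, was not called either. Of 3 fibroblast genes tested, Dcn was called lower at 4 Hz (-0.59) and the others were not called. Of 5 small RNAs tested, 3 were called lower at 1 Hz, 2 at 4 Hz, and 0 at 10 Hz, with a median log2 fold change of -2.39, -2.21, and -0.00. The largest called decreases were Rn7s2 at 1 Hz (-3.78 ± 1.43, SE) and Rpph1 at 4 Hz (-2.35 ± 0.52).

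The genes whose levels followed the troponins most closely over the 24 libraries included light chains of myosin and tropomyosin Tpm2. Likeness was the Pearson correlation of log2 CPM over 24 libraries. It was ranked among 8993 genes with a mean of at least 10 CPM, leaving out troponins and genes with predicted, clone, or pseudogene names. It is a description, since the libraries share conditions and composition. Mylpf was nearest to Tnnc2 (r = 0.988) and Tnnc1 (r = 0.986), followed for both by Eno3, the muscle enolase (r = 0.962 and 0.980). The third gene was Myl4 for Tnnc2 (r = 0.957) and Vamp5 for Tnnc1 (r = 0.951). Myl1, the fast essential light chain, was nearest to Tnnt1 (r = 0.977), Tnni2 (r = 0.968), and Tnnt3 (r = 0.957). The next genes were Tpm2 (r = 0.968) and Aamdc (r = 0.958) for Tnnt1, Mylpf (r = 0.955) and Tpm2 (r = 0.952) for Tnni2, and Mybpc1 (r = 0.956) and Casq1 (r = 0.950) for Tnnt3. The cardiac gene Tnnt2 had Aamdc (r = 0.957), Pdlim3 (r = 0.954), and Mylpf (r = 0.954). The nearest genes of the slow gene Tnni1 all code for mitochondrial proteins, Mtln (r = 0.960), Cox8b (r = 0.959), and Mrpl53 (r = 0.958). Between the 7 tested troponins themselves, r ranged from 0.854 to 0.978 in 21 pairs, and from 0.490 to 0.934 after removal of the condition means.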

How the data were processed

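RNA of 24 tissues was sequenced as paired-end reads of 50 bases after poly(A) selection. Per the labels, low-input samples were ribodepleted, and they are not named. The authors processed the reads with nf-core/rnaseq against GRCm39. Neither the annotation release nor the use of strand in counting is given in the sources used here. Processing notes of the submitters also name BWA 0.7.12-r1039 and bedtools 2.25.0. The deposited tables held salmon estimated counts (expected counts without normalization; 6.62 to 10.6% of a library's values had decimals) and TPM, which the authors scaled per transcript length and library.

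Estimated counts were rounded. edgeR 4.0.16 (filterByExpr, TMM, quasi-likelihood test) was fitted to the 24 libraries together, with no factor besides condition (limma 3.58.1, R 4.3.3), over 13318 genes holding 99.8% of counts. P-values were adjusted by Benjamini-Hochberg across the genes tested. Shares were tested by 2-sided exact permutation over 924 splits, adjusted over 42 comparisons, with intervals from inverting the same test. Scripts were tested on simulated data. Total counts set the counting error only. Of 28 pairs of troponin genes, 1 (Tnnt2 and Tnni1) shared any sequence of 31 bases, so reads of different troponin genes could rarely be confused.

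The members and lists were chosen with earlier results of these data known. Named genes were the 8 members, the thin filament list, the called genes with the largest changes of each other list against control, and the 3 genes most correlated with each troponin among those ranked. Some other listed genes were named for their levels or as limits. Alternatives were DESeq2 1.42.0 and its size factors, total count scaling, no filter, a mean of at least 5 CPM, limma on log2(TPM + 1) or log2(TPM + 0.1), only the 12 libraries compared, a replicate block, an adjusted p alone, the small RNA share as a covariate, leaving out each library, and shares of estimated counts. Gene positions and promoters came from GRCm39 with GENCODE M39, which may not be the release the authors used.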

Additional observations from a re-analysis of the deposited data

Results flagged for a closer look

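Of 68 groups of 6 values checked for a library apart from the rest (levels and shares of the troponins, their sum, and the small RNA share), 2 held one, where chance gives about 1 in 20. Control replicate 2 had the lowest troponin sum of its condition, 0.834% of all TPM, with the next control library at 0.970%. Without it, 0 troponin genes were called at 10 Hz. 4 Hz replicate 3 had the highest small RNA share of its condition, 50.0 CPM, with the next at 28.6 CPM.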

How the results depend on the processing

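The 7 calls at 4 Hz remained 7 without any 1 library and 7 under every other alternative except the small RNA covariate, which left 6. At 1 Hz the covariate left 0, limma on either TPM scale 5, total count scaling 6, the filter at 5 CPM 6, and leaving out 1 library 5 to 7. At 10 Hz the 1 call against control was 0 with total count scaling, with limma on either TPM scale, and with the covariate, 4 by adjusted p alone, and 0 to 2 without 1 library. The count was 0 without control replicate 2, 10 Hz replicate 4, or 10 Hz replicate 6, and 2 (Tnnc1 and Tnni2) without control replicate 1 or 3 or 10 Hz replicate 3 or 5. For 4 Hz against 1 Hz the count of 0 became 1 with a mean of at least 5 CPM (Tnni2), 4 by adjusted p alone, and 0 to 2 without 1 library, with 2 (Tnni1 and Tnni2) without 1 Hz replicate 6 or 4 Hz replicate 5. For 10 Hz against 1 Hz it became 2 by adjusted p alone. For 10 Hz against 4 Hz the count of 4 became 7 by adjusted p alone, 0 with the covariate, 3 with limma on either TPM scale, and 4 to 6 without 1 library. Under the covariate, 3 uncalled differences between 10 and 1 Hz changed sign: Tnni1 to 0.0440, Tnnc1 to 0.0799, and Tnnc2 to 0.0597. The causes were not tested.

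With the replicate block the counts were 7, 7, 1, 0, 0, and 4, the same as without it. The labels do not say that the numbers mark a shared batch, and 10 of 36 same-number pairs of libraries had a correlation of deviations over 0.1 (median 0.0173), so the numbers were not taken to pair the samples. As a hint of a shared structure by number, from the data and not the design, 10 of 24 libraries matched their own number best. A chance rate for this count was not worked out. Over all genes, the counts called against control at 1, 4, and 10 Hz were 2441, 2676, and 248, and became 4720, 5251, and 651 by adjusted p alone, and the 12 libraries alone gave 146 at 10 Hz. The share differences past the threshold were 0 under every alternative, and 0 to 3 of the 42 changed sign when 1 library was left out. Shares of estimated counts, which are not per length, differed from TPM shares by over 1 SD in 19 of 28 values. Depth limits Tnni3, which had 3 to 25 counts per library.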
